A study of Mus musculus with 176 samples.

Results

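The 7 TNF receptor superfamily genes *Tnfrsf4*, *Tnfrsf9*, *Tnfrsf18*, *Tnfrsf1b*, *Tnfrsf25*, *Cd27* and *Fas* were followed across single CD4 T cells. They were taken by gene name from a count table of 53546 gene names, all 7 were listed there, and all 7 passed the filter on low values in every comparison. Cells were compared by binding of a tetramer and by their *Foxp3* reads, since *Foxp3* is the lineage-defining transcription factor of regulatory T cells (Tregs). Cells with 10 or more *Foxp3* reads are called Foxp3-high and the others Foxp3-low. Their own levels did not enter the rule, but the *Foxp3* split used *Foxp3* reads.

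The study asked which transcriptome CD4 T cells that recognize P6, a peptide of apolipoprotein B, carry after vaccination with it. Female C57BL/6J mice, an inbred strain without a transgene, were 7 weeks old when obtained. They were given P6 peptide in complete Freund's adjuvant and, 2 weeks later, in incomplete adjuvant, and the draining lymph nodes were taken 2 weeks after the boost. Antigen-experienced CD4 T cells (TCR-beta+ CD4+ CD44hi CD62L-) were sorted 1 per well into 176 wells, 32 with binders (P6+) and the others with non-binders (P6-) of the P6:I-Ab tetramer, and full-length cDNA was made with Smart-Seq2, which counts reads and not molecules. All P6+ cells came from 1 mouse, and P6- cells were sorted from the smaller remainder of the sample volume, for which the sources used here name no mouse. No unvaccinated group was analysed here.

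Receptors of this superfamily bind trimeric ligands on neighboring cells and have no enzyme activity of their own. *Tnfrsf4* (OX40), *Tnfrsf9* (CD137), *Tnfrsf18* (GITR), *Tnfrsf1b* (TNFR2) and *Cd27* recruit TRAF adaptors, which lead to NF-kB signaling and give T cells costimulatory and survival signals. *Tnfrsf25* (DR3) and *Fas* carry a death domain, through which *Fas* starts caspase-driven apoptosis. OX40, CD137 and GITR are induced by T cell receptor stimulation, and OX40, GITR and TNFR2 are known for high levels on Tregs.

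In GRCm38, 5 of the 7 genes lay on chromosome 4 within 10.8 Mb. *Tnfrsf4* (chr4:156013843-156016612, plus strand) and *Tnfrsf18* (chr4:156026164-156028895, plus strand) were 9551 bases apart, with 2 other genes between. *Tnfrsf9* lay at chr4:150914562-150946102 (plus), *Tnfrsf25* at chr4:152115934-152120119 (plus) and *Tnfrsf1b* at chr4:145213463-145246870 (minus). *Cd27* was on chromosome 6 (chr6:125232622-125237010, minus) and *Fas* on chromosome 19 (chr19:34290666-34327772, plus). The annotation of *Tnfrsf18* shared 27.2% of its exon bases with the antisense gene *Gm16008*, so reads there cannot be assigned without strand. *Foxp3*, whose reads define the classes, shared 31.5% with 4 other genes. No other member shared more than 5.54% of its exon bases with another gene.

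The start regions of the members were searched for motifs of NF-kB and AP-1, the factors that act below these receptors and below the T cell receptor. RefSeq listed 9 start regions for the 7 genes (GRCm38.p6), and the 250 bases before each start were read on both strands for the NF-kB consensus and for the AP-1 letters TGANTCA. Of all 32851 start regions, 7.25% held the NF-kB consensus and 6.75% the AP-1 letters. Among the members, NF-kB matches stood before the second starts of *Tnfrsf9* and *Tnfrsf25*, and AP-1 matches before the second start of *Tnfrsf9* and the start of *Fas*. The matches are shown for *Tnfrsf9*, which had the largest ratio of pooled levels between P6+ and P6- cells, and the region before *Fas*, the member that was lower in Foxp3-high cells. Matched letters are in capitals, other bases in lower case, all 5′ to 3′ on the plus strand.
Tnfrsf9, second start, NF-kB match 43 to 33 bases before the start, chr4:150927948-150927974: gagcagctGGGGATTTCCCaggaggcc
Tnfrsf9, second start, AP-1 match 15 to 9 bases before the start, chr4:150927976-150927998: tgctcagtTGAGTCAcaggtcct
Fas, 250 bases before the start, chr19:34290409-34290658: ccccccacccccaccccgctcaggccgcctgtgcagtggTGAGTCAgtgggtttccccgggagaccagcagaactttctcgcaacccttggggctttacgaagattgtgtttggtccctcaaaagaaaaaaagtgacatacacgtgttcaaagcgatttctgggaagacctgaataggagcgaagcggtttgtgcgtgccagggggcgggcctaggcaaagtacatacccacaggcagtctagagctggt
A match describes the letters only. The other 6 start regions, those of *Tnfrsf4*, *Tnfrsf18*, *Tnfrsf1b* and *Cd27* and the first starts of *Tnfrsf9* and *Tnfrsf25*, held neither set of letters in these windows.

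Cells were kept at 500000 reads or more, 2000 genes or more and under 10% mitochondrial reads, which left 161 cells, among them all 32 P6+ cells, and removed 15 P6- cells. A further limit of the study, on mapping rate, could not be applied to the counts, so more P6- cells were kept here than in the study. These extra cells lie on the P6- side only, since the study also kept all 32 P6+ cells. They could not be told from the other P6- cells in the counts. Their part in the P6- levels, in the P6- shares and in the number of P6- cells without a receptor was not tested. Kept P6+ cells held 956280 to 3332191 reads and P6- cells 522188 to 3401372. The median number of genes per cell was 4396 in P6+ and 3432 in P6-, and the median mitochondrial share 1.29% and 3.56%. A CD4 T cell marker reached 10 reads in all kept cells but 3 P6- cells, and the summed level of these markers ranged from 2566 to 12726 cpm in P6+ and from 15.5 to 18662 cpm in P6- cells. Among the markers of CD8 T, B, NK, myeloid and red cells, *Cd79b* reached 10 reads in 2 P6+ cells, both Foxp3-high, while *Ms4a1*, *Cd79a* and *Pax5* did not, *Cd8b1* did in 2 P6- cells and *Klrd1* in 1. The sorted state was only partly seen in RNA, since *Cd44* had 10 or more reads in 11 P6+ and 30 P6- cells and *Ccr7* in 14 and 75.

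Levels are given as counts per 1000000 reads (cpm), for 1 cell or pooled over the cells of a group. A cell is said to hold a receptor at 10 or more of its reads, because values of 1 to 9 reads were common and stood apart from the higher ones for most receptors. Each sorted group counts as 1 sample, cells are not replicates, and no test between groups was possible. The 95% intervals are exact Poisson for sums and exact binomial for shares and cover counting error only. A log2 ratio was taken of pooled cpm with a pseudocount of 1, and a difference of 1 log2 is set beside the share of all genes that differed as much. The same share is given for a difference of 20 percentage points of cells, after every cell was thinned to 500000 reads, at 3 or more reads.

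Per kilobase of exon, *Tnfrsf4* was the most abundant of the 7 receptors in both sorted groups, at 2687 pooled cpm per kb in P6+ and 1769 in P6- cells. *Cd27* followed with 469.8 and 335 cpm per kb. *Tnfrsf9*, *Tnfrsf1b* and *Tnfrsf18* lay close to each other in P6+ cells (345, 326 and 312 cpm per kb), but *Tnfrsf9* was below the others in P6- cells (98.1 against 178 and 171). The death domain receptors were lowest, *Tnfrsf25* with 64.7 and 62.9 and *Fas* with 41.9 and 46.4 cpm per kb. For most receptors the single cells formed a cloud above 100 cpm and another at the level of a few reads, as the plot of single cells shows. *Tnfrsf1b* exceeded 100 cpm in 26 of the 28 P6+ and 40 of the 45 P6- cells with 10 or more reads. *Tnfrsf4* was less clearly divided, with 73 of 88 such P6- cells.

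**Figure D1:**
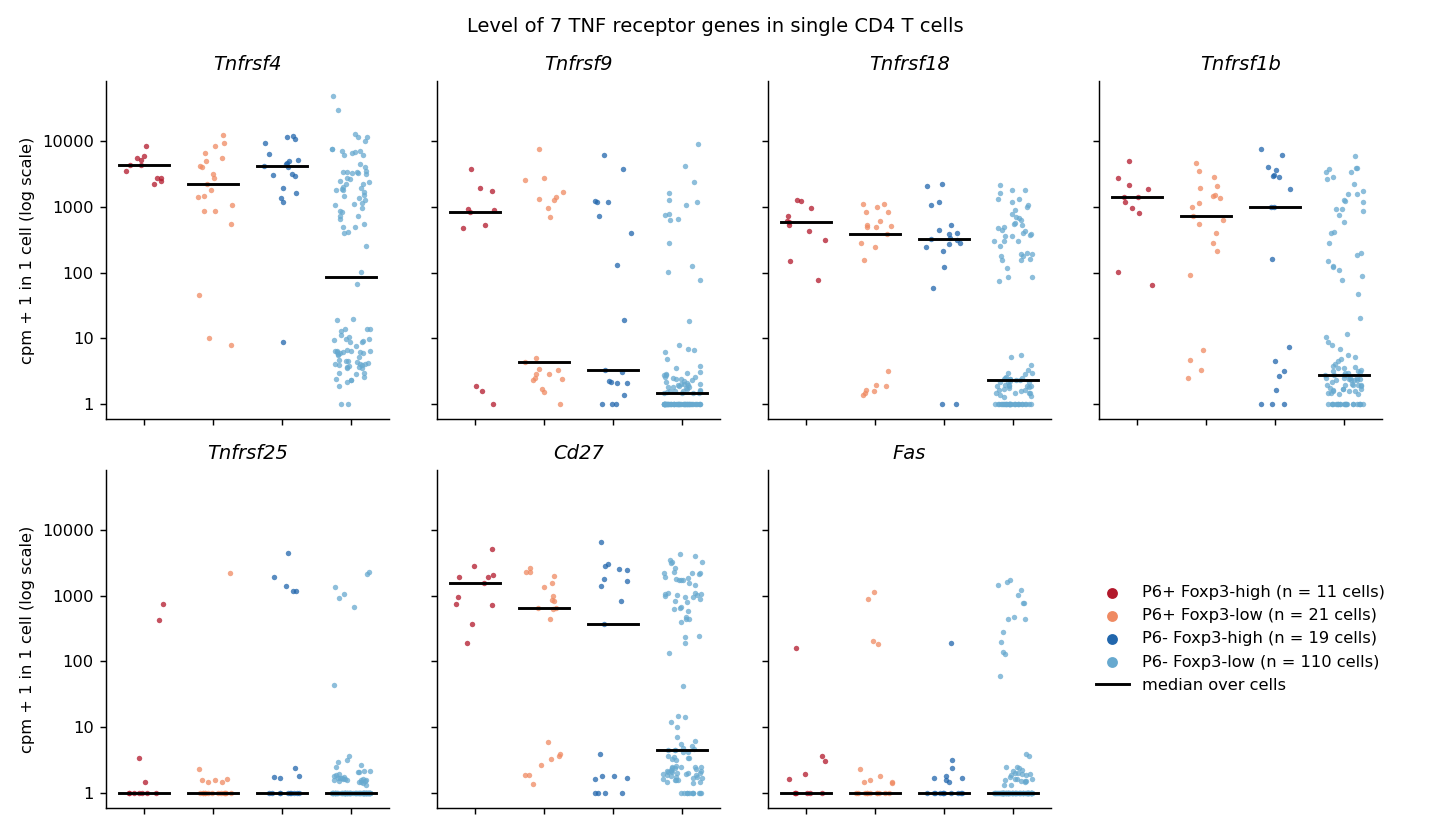
Level of each receptor in single cells (vertical axis, cpm plus 1 on a log scale) in the 4 classes of cells, with a point per cell and a line at the median. Most receptors split into cells above 100 cpm and cells near a few reads, and the P6+ Foxp3-high class has hardly any cell in the lower cloud for Tnfrsf4, Tnfrsf18, Tnfrsf1b and Cd27.

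P6+ cells held the costimulatory receptors more often than P6- cells, and the death domain receptors about as often. *Tnfrsf4*, the receptor of OX40 ligand, ranged in P6+ cells from 7.02 over a median of 2989 to 12425 cpm, and in P6- cells from 0 over 724.5 to 47855 cpm. All 32 P6+ cells held it, a share of 100% (95% interval 89.1 to 100%), against 88 P6- cells (68.2%, 59.4 to 76.1%). The lowest P6+ cells overlapped with the low cloud of P6- cells, since only 29 of the 32 exceeded 100 cpm, compared with 73 P6- cells. Pooled levels were 3667 cpm (3652 to 3683) and 2414 cpm (2408 to 2421), a log2 ratio of 0.60.

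*Tnfrsf9*, the CD137 receptor that marks recent stimulation, showed the largest ratio of pooled levels among the 7. P6+ cells ranged from 0 over a median of 505 to 7469 cpm and P6- cells from 0 over 0.588 to 8886 cpm, so that the ranges overlapped while the medians lay in different clouds. It was held by 17 of 32 P6+ cells (53.1%, 34.7 to 70.9%) and 26 P6- cells (20.2%, 13.6 to 28.1%). Pooled levels were 938 cpm (930.1 to 946) and 267 cpm (265 to 269), a log2 ratio of 1.81. Among cells that held it, the median was 1308 cpm in P6+ and 768 cpm in P6-. In each group 1 cell gave a large part of the reads, 21.05% in P6+ and 22.0% in P6-.

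*Tnfrsf18*, the receptor GITR, ranged from 0.370 over a median of 490.3 to 1277 cpm in P6+ and from 0 over 1.93 to 2214 cpm in P6- cells. It was held by 25 of 32 P6+ cells (78.1%, 60.03 to 90.7%) and 59 P6- cells (45.7%, 36.9 to 54.7%), and the log2 ratio of 475 to 261 pooled cpm was 0.86. *Tnfrsf1b*, which encodes the TNF receptor that lacks a death domain, had the widest gap in share. It was held by 28 of 32 P6+ cells (87.5%, 71.01 to 96.5%) and 45 P6- cells (34.9%, 26.7 to 43.8%). P6+ cells ranged from 1.48 over 1068 to 4918 cpm and P6- cells from 0 over 2.02 to 7564 cpm. Pooled levels of 1244 and 680.2 cpm gave a log2 ratio of 0.87. In cells that held *Tnfrsf1b*, the median was similar in the 2 groups (1274 and 1191 cpm), while the share of cells holding it differed.

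*Cd27*, the receptor of CD70 on naive and memory T cells, was held by 24 of 32 P6+ cells (75%, 56.6 to 88.5%) and by 57 P6- cells (44.2%, 35.5 to 53.2%). P6+ cells ranged from 0.370 over 792 to 5132 cpm and P6- cells from 0 over 3.59 to 6504 cpm, with pooled levels of 1094 and 779.7 cpm and a log2 ratio of 0.49. *Tnfrsf25* and *Fas* stayed at 0 cpm in the median cell of both groups. *Tnfrsf25* was held by 3 P6+ (9.38%, 1.98 to 25.02%) and 12 P6- cells (9.30%, 4.90 to 15.7%), at 147 and 143.2 pooled cpm (log2 ratio 0.04), and 1 cell gave 67.2% of its P6+ reads. Without the top cell of each group the ratio was -1.265. *Fas* was held by 5 P6+ (15.6%, 5.28 to 32.8%) and 16 P6- cells (12.4%, 7.26 to 19.4%), at 86.4 and 95.7 pooled cpm (log2 ratio -0.14). The intervals of their shares overlapped.

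By pooled level, 1 of the 7 receptors was higher by 1 log2 in P6+ cells, *Tnfrsf9*, while 24.3% of all 8728 genes tested were, so the count does not exceed the background. By share of cells after thinning, 4 of the 7 were higher by 20 percentage points (*Tnfrsf9*, *Tnfrsf18*, *Tnfrsf1b* and *Cd27*), against 24.1% of 2929 genes. Their differences were 32.2, 31.6, 49.5 and 32.4 percentage points, and the median over all genes tested was 13.35. P6+ cells also had more genes and a lower mitochondrial share per cell, and the part of these measures in the difference was not tested.

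**Figure D2:**
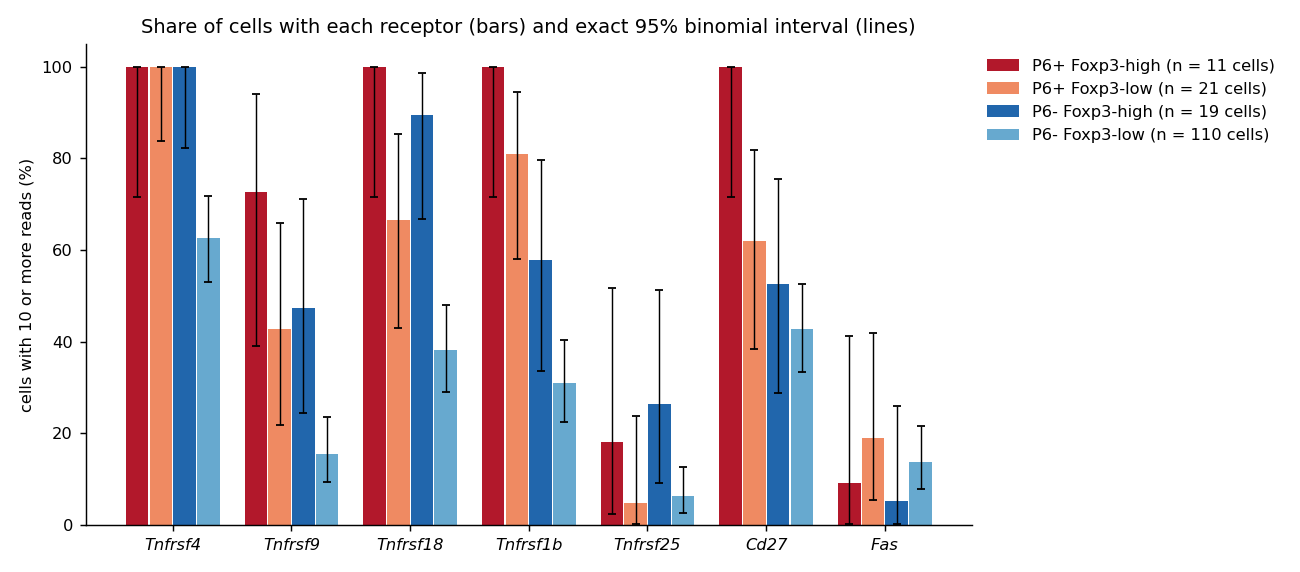
Share of cells with 10 or more reads of each receptor (vertical axis, percent) in the 4 classes, with exact 95% binomial intervals as lines. The P6+ Foxp3-high class reaches 100% for Tnfrsf4, Tnfrsf18, Tnfrsf1b and Cd27, and the P6- Foxp3-low class is lowest for all receptors but Tnfrsf25 and Fas.

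Cell names carried 8 prefixes, whose meaning the labels do not state, and all P6+ cells bore the same one. Prefix groups of P6- cells held 11 to 24 cells. The share of cells holding the receptor was higher in P6+ cells than in all 8 prefix groups of P6- cells for *Tnfrsf4*, *Tnfrsf9*, *Tnfrsf18*, *Tnfrsf1b* and *Cd27*. For *Tnfrsf1b* the prefix groups ranged from 18.2 to 50% and for *Tnfrsf9* from 9.09 to 33.3%, while for *Fas* they ranged from 0 to 25% around the P6+ value. In pooled cpm, P6+ cells exceeded all 8 groups for *Tnfrsf9* and *Tnfrsf18*, and 7 of 8 for *Tnfrsf4*, *Tnfrsf1b* and *Cd27*. The share of all genes that exceeded all 8 groups was not computed, so these counts have no background beside them. Over all genes tested, the median difference in share of cells between P6+ and all P6- cells was 13.35 percentage points after thinning.

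**Figure D3:**
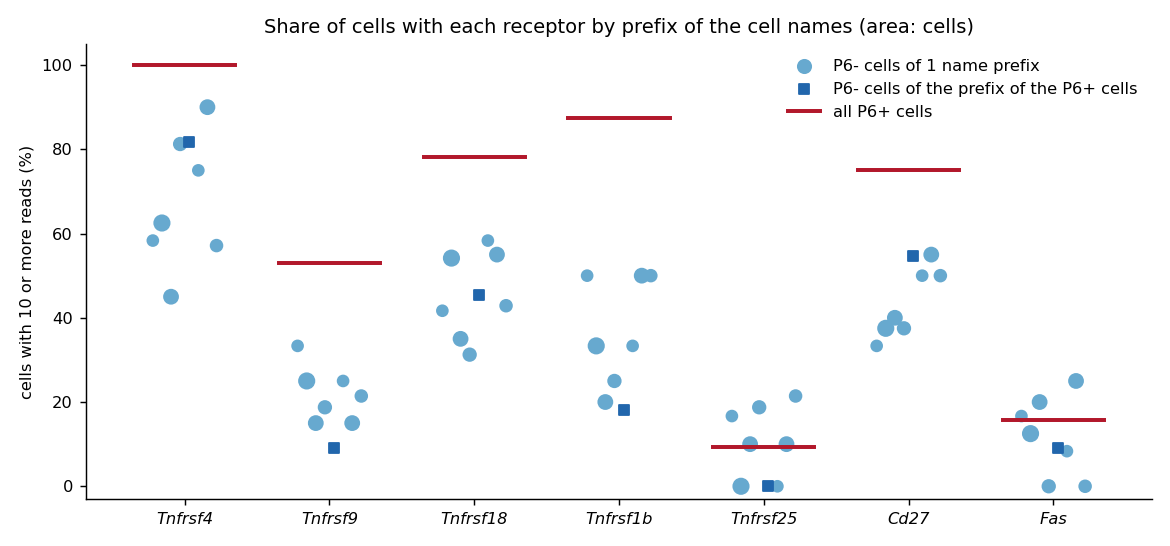
Share of P6- cells with 10 or more reads of each receptor (vertical axis, percent) in each prefix of the cell names, with the area of a point giving the number of cells, the square marking the prefix that the P6+ cells share, and the line giving all 32 P6+ cells. For Tnfrsf4, Tnfrsf9, Tnfrsf18, Tnfrsf1b and Cd27 the P6+ line lies above all 8 points.

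The 11 P6- cells of the prefix of the P6+ cells are the closest comparison at hand. *Tnfrsf1b* was held by 2 of them and *Tnfrsf9* by 1, at 58.2 and 65.8 pooled cpm, so the log2 ratios were 4.395 and 3.81. *Tnfrsf4* was held by 9 of the 11 (log2 ratio 1.21), *Tnfrsf18* by 5 (1.55), *Fas* by 1 (2.24), *Tnfrsf25* by 0, and *Cd27* by 6 (0.07). All receptors but *Cd27* were thus higher by 1 log2, in a comparison where 50.3% of all genes were and where the median gene stood at 1.04. By share after thinning, 4 of the 7 were higher by 20 points, against 28.1% of genes. The 11 cells, of which 3 were Foxp3-high, had a median mitochondrial share of 6.45% and a median of 3674 genes.

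*Foxp3* reads fell into separate ranges. The highest cell below the limit of 10 reads held 4 reads in P6+ and 2 in P6-, and the lowest cell above it 22 and 37. Foxp3-high cells numbered 11 of 32 in P6+ (34.4%, 18.6 to 53.2%) and 19 in P6- (14.7%, 9.11 to 22.0%). In P6- cells, 6 of the 7 receptors were higher by 1 log2 in Foxp3-high than in Foxp3-low cells, compared with 24.4% of 8335 genes, and *Fas* was lower by 1 log2, as were 37.9% of genes. Without the 8 cells with reads of other cell types or no CD4 T cell marker, the count was 5, with *Tnfrsf18* at 0.97, and with *Foxp3* split at 1 read it was 3. The share of all genes was not computed for these alternatives. The median log2 ratio of the receptors was 1.25 and that of all genes -0.28.

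*Tnfrsf25* had the highest log2 ratio, 2.43, with 474 against 87.2 pooled cpm. It rested on few cells, 5 of 19 Foxp3-high (26.3%, 9.15 to 51.2%) and 7 of 110 Foxp3-low cells (6.36%, 2.597 to 12.7%), and the median cell was at 0 cpm in both. *Tnfrsf1b* ranged from 0 over a median of 1002.5 to 7564 cpm in the Foxp3-high and from 0 over 1.76 to 5938 cpm in the Foxp3-low P6- cells. It was held by 11 of 19 and 34 of 110 cells, with a log2 ratio of 2.11 between 1988 and 459 pooled cpm. *Tnfrsf9* was held by 9 of 19 and 17 of 110 cells, at 696 and 194 pooled cpm (1.83), although its median cell was at 2.345 and 0.488 cpm, both in the low cloud.

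*Tnfrsf4* was held by all 19 Foxp3-high P6- cells and 69 of 110 Foxp3-low cells. The Foxp3-high cells ranged from 7.77 over a median of 4134 to 11787 cpm and the Foxp3-low cells from 0 over 83.6 to 47855 cpm, and the 2 highest cells of all were Foxp3-low. Pooled levels were 4537 and 2055 cpm (1.14). *Tnfrsf18* was held by 17 of 19 cells (89.5%, 66.9 to 98.7%) and 42 of 110 (38.2%, 29.1 to 47.9%), the widest gap in share, at 519 and 217 pooled cpm (1.25). *Cd27* stood at the limit itself with a log2 ratio of 1 (1363 and 681 cpm), and its shares overlapped, with 10 of 19 (52.6%, 28.9 to 75.5%) and 47 of 110 cells (42.7%, 33.3 to 52.5%). *Fas* was held by 1 of 19 and 15 of 110 cells, at 9.38 and 110.3 pooled cpm (-3.42), and the intervals of its shares overlapped (0.133 to 26.03% and 7.84 to 21.5%).

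After thinning, 3 receptors were held by at least 20 percentage points more of the Foxp3-high P6- cells (*Tnfrsf18* by 50.4, *Tnfrsf9* by 31 and *Tnfrsf1b* by 25.9 points), against 13.1% of 2859 genes. *Tnfrsf25* was just below the limit with 19.9 points. Gene counts did not separate these classes, with medians of 3415 and 3446 genes per cell, but the mitochondrial share was lower in Foxp3-high cells (2.11 and 3.93%).

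Within P6+ cells, Foxp3-high cells held 4 of the receptors without exception, while most pooled levels differed by less than 1 log2. *Tnfrsf4*, *Tnfrsf18*, *Tnfrsf1b* and *Cd27* were each held by all 11 Foxp3-high cells (100%, 71.5 to 100%), and by 21, 14, 17 and 13 of the 21 Foxp3-low cells. The share of all genes held by all 11 cells was not computed. *Cd27* ranged from 190.4 over a median of 1575 to 5132 cpm in Foxp3-high cells and from 0.370 over 647 to 2656 cpm in Foxp3-low cells. With 1758 and 800.3 pooled cpm (log2 ratio 1.13) it was the only receptor higher by 1 log2, as were 28.2% of genes. With *Foxp3* split at 1 read the ratio of *Cd27* was -0.083. *Tnfrsf18* reached 659.8 and 394 pooled cpm (0.74), *Tnfrsf1b* 1520 and 1121 (0.44), *Tnfrsf4* 4317 and 3380.0 (0.35) and *Tnfrsf9* 982 and 918 (0.10). *Tnfrsf9* was held by 8 of 11 and 9 of 21 cells, *Tnfrsf25* by 2 and 1 cells. *Fas* was held by 1 of 11 and 4 of 21 cells, at 14.8 and 118.1 pooled cpm (-2.91), and 38.3% of genes were lower by 1 log2 or more. After thinning, 4 receptors were higher by 20 points (*Tnfrsf9*, *Tnfrsf18*, *Tnfrsf25* and *Cd27*), against 36.9% of genes. Foxp3-high P6+ cells also had more genes (medians of 4618 and 4250) and a lower mitochondrial share (1.16% and 1.49%), and the part of these measures was not tested.

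**Figure D4:**
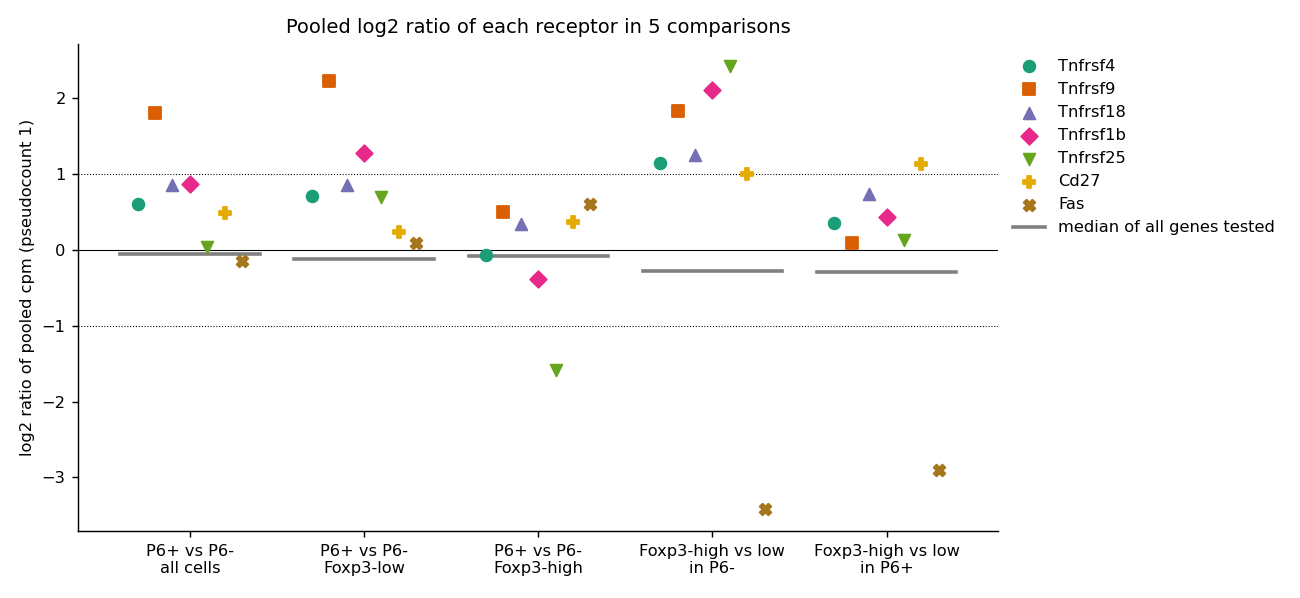
Log2 ratio of pooled cpm (vertical axis, pseudocount 1) of each receptor in 5 comparisons, with a grey line at the median of all genes tested and dotted lines at 1 and -1. For the Foxp3 split within P6- cells the receptors other than Fas lie at 1 or above, and Fas lies at -2.91 and -3.42 in the 2 Foxp3 splits.

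Among Foxp3-low cells, all 7 receptors were at or above the P6- level in P6+ cells, with the median of all genes at -0.12. These classes also differed in the 10 Treg-associated genes listed below. Their summed level had a median of 2571 cpm per Foxp3-low P6+ cell and 225 cpm per Foxp3-low P6- cell. The part of this in the receptor ratios was not tested. *Tnfrsf9* (918 against 194 pooled cpm, log2 ratio 2.23) and *Tnfrsf1b* (1121 against 459, 1.29) were higher by 1 log2, as were 25.9% of genes. *Tnfrsf9* was held by 9 of 21 P6+ (42.9%, 21.8 to 65.98%) and 17 of 110 P6- cells (15.5%, 9.27 to 23.6%), and *Tnfrsf1b* by 17 of 21 (80.95%, 58.1 to 94.5%) and 34 of 110 (30.9%, 22.4 to 40.4%). *Tnfrsf18* had a log2 ratio of 0.86, *Tnfrsf4* of 0.72, *Tnfrsf25* of 0.71, *Cd27* of 0.23 and *Fas* of 0.10. The ratio of *Tnfrsf25* came from 1 cell, which held 99.9% of its reads among Foxp3-low P6+ cells. After thinning, 5 of the 7 (*Tnfrsf4*, *Tnfrsf9*, *Tnfrsf18*, *Tnfrsf1b* and *Cd27*) were higher by 20 points, against 23.5% of genes.

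Among Foxp3-high cells, none of the 7 receptors was higher by 1 log2 in P6+ cells, where 32.9% of genes were. The log2 ratios ran from -0.39 for *Tnfrsf1b* and -0.07 for *Tnfrsf4* over 0.34 for *Tnfrsf18*, 0.37 for *Cd27* and 0.50 for *Tnfrsf9* to 0.61 for *Fas*, which rested on 1 cell in each group with 97.4% and 96.75% of its reads and stood at -2.45 with *Foxp3* split at 1 read. *Tnfrsf25* was lower by 1 log2 (157 against 474 pooled cpm, -1.58), as were 36.7% of genes, with 2 of 11 and 5 of 19 cells holding it. Against the 3 Foxp3-high P6- cells of the same prefix, the median gene stood at 3.86. There *Tnfrsf25* turned to 6.89, *Tnfrsf1b* to 4.35 and *Tnfrsf4* to 1.41, while *Cd27* turned to -0.11 and *Fas* to -1.54. In share of cells after thinning, 3 receptors were higher by 20 points in P6+ cells (*Cd27* by 47.4, *Tnfrsf1b* by 36.8 and *Tnfrsf9* by 25.4), against 41% of genes. *Cd27* was held by all 11 P6+ and 10 of 19 P6- cells, and the cells that held it reached medians of 1575 and 2130 cpm. These comparisons share their cells with those by *Foxp3*, so their values are given side by side only.

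P6+ cells held more of the receptors at once. The number of receptors held per cell ranged from 1 over a median of 4 to 6 in P6+ cells and from 0 over 2 to 6 in P6- cells. No cell held all 7. It was lowest in Foxp3-low P6- cells, where 18 of 110 held none and the median was 2. All 11 Foxp3-high P6+ cells held 4 or more, as did 10 of the 19 Foxp3-high P6- cells, 15 of the 21 Foxp3-low P6+ and 22 of the 110 Foxp3-low P6- cells. After thinning, the medians were 4 in P6+ and 3 in P6- cells. P6+ cells also had more genes per cell than P6- cells, at medians of 4396 and 3432. P6- cells with 3 or more receptors had more genes than those with fewer, at medians of 3596 and 3237.5. The part of these differences was not tested.

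**Figure D5:**
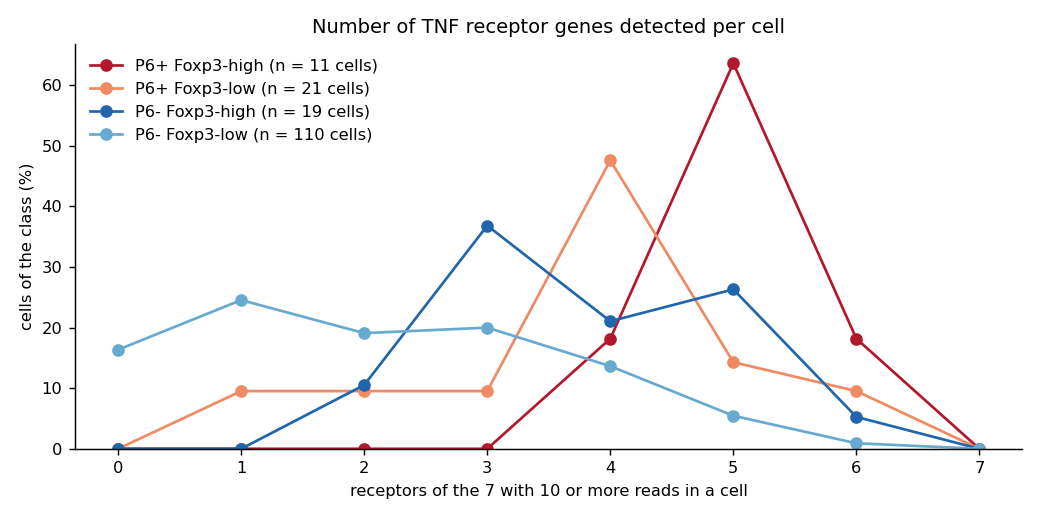
Share of the cells of each class (vertical axis, percent) by the number of the 7 receptors with 10 or more reads in the cell (horizontal axis). P6+ Foxp3-high cells hold 4 to 6 receptors, and P6- Foxp3-low cells 0 to 6 with a median of 2.

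Many cells held several of the receptors. In P6+ cells, of which 28 of 32 held *Tnfrsf1b*, all 17 cells with *Tnfrsf9* and all 25 with *Tnfrsf18* also held *Tnfrsf1b*, and 16 of the 17 with *Tnfrsf9* held *Tnfrsf18*. In P6- cells *Tnfrsf1b* was held by 15 of the 26 cells with *Tnfrsf9* (57.7%) and 26 of the 59 with *Tnfrsf18* (44.1%). Of the P6- cells, all 26 with *Tnfrsf9* held *Tnfrsf4*, as did 54 of the 59 with *Tnfrsf18* (91.5%) and 38 of the 45 with *Tnfrsf1b* (84.4%). Of the 41 P6- cells without *Tnfrsf4*, 5 held *Tnfrsf18* (12.2%), 7 *Tnfrsf1b* (17.1%) and 14 *Cd27* (34.1%). *Cd27* was held by 48.9% of P6- cells with *Tnfrsf1b* and 41.7% of those without, and in P6+ cells by 22 of the 25 with *Tnfrsf18* (88%) and 2 of the 7 without (28.6%). Over all kept P6- cells, which differ in depth and prefix, Spearman's rho of log2(cpm + 1) was highest between the neighboring genes *Tnfrsf4* and *Tnfrsf18* (0.48), and it was 0.43 over the 32 P6+ cells.

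Of 1152 genes with 10 or more reads in at least 25% of P6- cells, the 7 receptors themselves left out, few had a pattern like that of a receptor. *Sdf4* (rho 0.42) and *Ctla4*, an inhibitory receptor of T cells (0.41), were most like *Tnfrsf4*, *Samsn1* (0.42) most like *Tnfrsf9*, and *Lgals1*, which encodes galectin-1 (0.44), most like *Tnfrsf1b*. Over the 32 P6+ cells the same pairs had a rho of 0.20, -0.02, 0.05 and 0.16. None of these genes reached 0.4 with *Tnfrsf18*, *Tnfrsf25*, *Cd27* or *Fas*.

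The ligands of the 7 receptors were sparse, with 5 of 8 reaching 10 cpm in P6+ or P6- cells. *Fasl*, the ligand of Fas, was at 0.185 pooled cpm with 0 of 32 P6+ cells holding it, and at 137.6 cpm with 12 P6- cells. All 12 were Foxp3-low. *Tnfsf9*, the ligand of CD137, was at 127.5 cpm in P6+ and 3.59 cpm in P6- cells. It was held by 3 P6+ cells, all Foxp3-high, as were 11 of the 32 P6+ cells, and by 2 P6- cells. *Lta* was held by 2 cells in each group, at 26.4 and 18.2 cpm.

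Of 21 other receptors of the family, 8 reached 10 cpm, 3 higher and 1 lower by 1 log2 in P6+ cells (24.3% and 29.9% of all genes). *Cd40* (54.3 against 0.00490 cpm) rested on 1 P6+ cell, and *Tnfrsf1a*, the death domain receptor of TNF, on 4 P6+ and 6 P6- cells (77.7 and 19.2 cpm). *Tnfrsf13b* was lower in pooled level (33.4 and 231 cpm, -2.75), from 4 P6+ and 8 P6- cells, and *Tnfrsf10b* stood at 22.9 and 37.1 cpm. By *Foxp3* in P6- cells, 6 of 7 such receptors were higher and 1 lower (24.4% and 37.9% of all genes), the same tally as for the 7 members, with a median log2 ratio of 2.30 from few cells. *Tnfrsf12a* and *Tnfrsf8* were highest (57.2 and 84.3 cpm in Foxp3-high cells, each from 1 cell), and *Tnfrsf26* lowest (43.6 against 203 cpm, -2.19).

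Among 17 adaptors and regulators, 16 reached 10 cpm, 2 higher and 4 lower by 1 log2 in P6+ cells (24.3% and 29.9% of all genes). *Fadd*, the adaptor of Fas, was at 70.99 and 17.6 cpm (1.95) and *Siva1*, a protein that binds CD27, at 32.3 and 6.13 cpm (2.22). *Birc3*, a ubiquitin ligase that binds TRAF proteins, was at 76.9 cpm in P6+ and 325 cpm in P6- cells (-2.07) and *Traf6* at 6.89 and 47.9 cpm (-2.63). By *Foxp3* in P6- cells, 4 of 16 were higher and 5 lower (24.4% and 37.9% of all genes). *Fadd* (2.59) and *Ripk1* (2.54) stood at the upper end, while *Birc3* (-2.32) and *Map3k14*, the kinase of the non-canonical NF-kB pathway, stood at the lower end. *Map3k14* was held by 0 of 19 Foxp3-high and 15 of 110 Foxp3-low P6- cells.

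Of 10 Treg-associated genes, 5 were higher and 1 lower by 1 log2 in P6+ cells (24.3% and 29.9% of all genes), with *Ikzf4* (509 and 100.6 cpm, 2.33) and *Itgae* (547 and 119.5 cpm, 2.19) at the upper end, *Lrrc32* at 454 and 316 cpm and *Nrp1* lowest (5.53 and 54.9 cpm, -3.10). By *Foxp3* in P6- cells, 8 were higher (24.4% of all genes), among them *Foxp3* itself, which defined the split, and *Ikzf2* (890.3 and 70.7 cpm, 3.64), and 2 were lower (37.9% of all genes), *Nrp1* (8.47 and 62.7 cpm, -2.75) and *Il10*, which was listed at 0 in Foxp3-high cells and at 14.8 cpm, from 1 cell, in the others and is named after its values were seen. The summed level of the list had a median of 4784 cpm per P6+ and 613 cpm per P6- cell.

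Reads of *Trbv13-2*, a V segment of the T cell receptor beta chain, also split the P6+ cells, with 16 cells at 10 or more reads and 16 with fewer. All 16 cells with the segment held *Tnfrsf4*, *Tnfrsf18* and *Tnfrsf1b*, against 16, 9 and 12 of the others. They also all held 4 or more receptors, against 10 of the others. *Cd27* (15 and 9 cells, log2 ratio 1.42) and *Tnfrsf18* (16 and 9 cells, 1.15) were higher by 1 log2 with the segment, as were 34.9% of genes, *Fas* (1 and 4 cells, -4.08) and *Tnfrsf25* (2 and 1 cells, the latter with 99.85% of the reads of its group, -1.08) were lower by 1 log2, as were 33.4%, and 9 of the 16 cells with it were Foxp3-high, against 2 of the others.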

How the data were processed

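Single CD4 T cells sorted by P6:I-Ab tetramer (32 P6+, 144 P6-) were sequenced with Smart-Seq2. The deposited counts are raw reads per gene and cell, made by the authors with STAR 2.6.0a against GRCm38 with Ensembl gene models. The submitters' processing notes also name FastQC 0.11.7 and SAMtools 0.1.19. The strand setting of the counting was not given in the sources used here, and reads were not collapsed to molecules. The deposited tetramer sign of each cell matched its label in 176 of 176 cells. The 53647 lines of the table held 53546 gene names, and lines that shared a name were averaged, as in the study's methods, which gives fractions of reads in some totals.

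Cells with under 500000 reads, under 2000 genes or 10% or more mitochondrial reads were left out, that is 15 P6- cells (7 for reads, 8 for mitochondrial share). The median kept cell held 1731608 reads in P6+ and 1500457 in P6-. The reads of each group's cells were added up and scaled to cpm. A log2 ratio (pseudocount 1 cpm) of 1 or more in size among genes with 10 cpm in the higher group was counted as a difference, and the share difference of 20 percentage points was chosen after seeing the data. As all cells of a group make 1 sample, no test between groups was run. Doublets were not called, since cells were sorted 1 per well.

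The 7 members and the gene lists were chosen with earlier results of these data known. Besides the members, the text names, per list and for the comparisons of P6+ with P6- and of *Foxp3* classes within P6- cells, the highest and the lowest genes by log2 ratio, taken from genes that reach 20 cpm in 1 of the groups, and per member up to 3 genes of P6- cells with a rho of 0.4 or more. Scripts ran in Python 3.11.15 with numpy 2.4.6, pandas 2.3.3 and scipy 1.17.1, with TMM factors from edgeR 4.0.16. The ratio calculation was run on simulated Poisson counts with a common mean for each gene. Such counts lack the spread between real cells, so the run checks the calculation and not how often genes pass the limit. Annotation came from GENCODE M21 and start regions from RefSeq, both of GRCm38.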

Additional observations from a re-analysis of the deposited data

Results flagged for a closer look

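*Tnfrsf25* lay on opposite sides in the 2 *Foxp3* classes, with a log2 ratio of P6+ to P6- cells of -1.58 among Foxp3-high and 0.71 among Foxp3-low cells. The difference between these ratios was not tested. Against P6- cells of the same prefix both ratios were 6.89, and without the top cell of each group they were -3.30 and -5.82. It rested on 2 and 5 cells with 10 or more reads among the Foxp3-high P6+ and P6- cells, and on 1 and 7 among the Foxp3-low cells.

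The 15 P6- cells outside the quality limits enter no comparison but those of an alternative without a filter on cells. Of the 15, 8 still held 10 or more reads of a receptor. *Tnfrsf4* reached 10 reads in 8 of these cells, *Cd27* in 2, and *Tnfrsf9*, *Tnfrsf18* and *Tnfrsf1b* in 1 each. *Tnfrsf25* and *Fas* reached it in 0. Pooled levels in the 15 cells were 124.1 cpm for *Tnfrsf4*, 180.5 cpm for *Tnfrsf18* and 32.8 cpm for *Tnfrsf9*, all below those of the P6- cells inside the limits.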

How the results depend on the processing

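The number of receptors higher by 1 log2 moved with how cells were combined. With the median over cells of log2(cpm + 1) in place of pooled reads, it went from 1 to 5 for P6+ against P6- cells, from 1 to 2 for Foxp3-high against Foxp3-low P6+ cells, from 0 to 2 for P6+ against P6- among Foxp3-high and from 2 to 5 among Foxp3-low cells. With the mean of single-cell cpm, or with cells thinned to 500000 reads, it was 2 for P6+ against P6-. Against P6- cells of the same prefix alone it was 6 in all cells, 5 among Foxp3-high and 6 among Foxp3-low cells, where the medians of all genes were 1.04, 3.86 (against 3 P6- cells) and 2.07 and those of the receptors 2.24, 1.86 and 3.10. Leaving out the cell with most reads of the gene gave 2 for *Foxp3* within P6+ cells. With *Foxp3* split at 1 read, the count fell to 0 within P6+ and to 3 within P6- cells. For the same prefix in all cells, 50.3% of all genes were higher by 1 log2. Under the other alternatives that share was not computed, so their counts have no background beside them. The cause of the changes was not tested.

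Of 13 ratios of 1 log2 or more in size, directions turned for 2, that is *Cd27* by *Foxp3* in P6+ cells when the split was at 1 read (-0.083, from 1.13) and *Tnfrsf25* among Foxp3-high cells against the same prefix (6.89, from -1.58, with the median of all genes at 3.86). Of 22 smaller ratios, 11 changed sign under at least 1 alternative, among them *Tnfrsf25* among Foxp3-low cells without its top cell (-5.82, from 0.71) and *Tnfrsf1b* among Foxp3-high cells against the same prefix (4.35, from -0.39, beside the same median). *Tnfrsf9* was higher by 1 log2 in P6+ cells under 12 of 12 alternatives, and among Foxp3-low cells *Tnfrsf9* and *Tnfrsf1b* under 14 of 14. By *Foxp3* in P6- cells, *Tnfrsf9* and *Tnfrsf1b* were higher under 13 of 13 and *Cd27*, at the limit, under 7. TMM factors moved all log2 ratios by -0.01 to -0.08. Without the 8 cells with reads of other cell types or without CD4 T cell markers, an alternative chosen after seeing the data, 4 of the 5 counts were as reported and that by *Foxp3* in P6- cells was 5 in place of 6, since *Tnfrsf18* stood at 0.97.

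P6+ cells came from 1 mouse and no mouse is named for the P6- cells, so tetramer binding and mouse cannot be told apart, while prefix was held constant only against 11 P6- cells. Intervals cover counting error only, and for a receptor held by all 11 Foxp3-high P6+ cells the lower bound was 71.5%. No paired analysis was run, since the labels number cells, which are not paired between the groups. The *Foxp3* split within P6- cells was not set within prefix, though each prefix held 1 to 5 Foxp3-high P6- cells.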
